A study of Homo sapiens with 2 samples.

Results

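Homeobox and PAX genes encode transcription factors that pattern the embryo, and most of them are held silent in pluripotent stem cells. The report covers 54 such genes of human cells, taken by symbol from the 36601 genes of the deposited count tables, and all 54 were found once in each table. They comprised 6 DLX genes, SIX2 to SIX6, 5 IRX, 7 PAX, 12 HOX, 3 LHX, 2 MSX, 2 MEIS, 2 NKX, 2 EN and 2 CDX genes, with EMX2, GBX2, ISL1, BARX1, VAX1 and RAX. The cells were H9, an established human embryonic stem cell line. They were grown in the naive-state medium RSeT, with 10 nM DZNep (an inhibitor of a methyltransferase pathway) and 5 nM TSA (a histone deacetylase inhibitor) from transfection on. The ASO_L1 library came from cells that received 25 nM of a dye-labelled antisense oligonucleotide to LINE1, the most abundant active retrotransposon of the human genome. The SO_L1 library, its control, came from cells that received 25 nM of the sense oligonucleotide. Both cultures also had 0.7 µM Trans-ISRIB, 5 µM emricasan and 10 µM Y-27632 until 24 hours, and dye-positive cells were sorted at 48 hours, so both libraries hold only cells that took up an oligonucleotide. Each group is 1 library of 1 cell line, so no difference between the groups has a replicate check and no p-value is given.

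Homeodomain factors bind short AT-rich sites in DNA, and PAX factors bind through a paired domain. Their genes often lie in clusters (HOX, DLX, IRX) whose neighbours are switched on together in embryonic tissue. Polycomb complexes keep these clusters repressed in embryonic stem cells, and signals such as retinoic acid, BMP and WNT are known to open them. DLX and MSX genes and SIX4 are known for roles in the ectoderm of the head, PAX6, LHX2, EMX2 and RAX for roles in forebrain and eye, and HOX genes for position along the body axis.

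The promoters of 6 of these genes are shown because they stand for the groups described below: DLX2, SIX2 and MSX2, which were higher in the ASO_L1 library, IRX2, the most abundant of the genes, and HOXB1 and RAX, which were lower. Each sequence is the 300 bases from 250 before to 50 after the gene's first listed start, 5′ to 3′ on the gene's own strand, from RefSeq on GRCh38.p14. Capitals mark the CCAAT box, in either orientation (CCAAT or ATTGG). The windows are chr2:172102851-172103150 (minus strand) for DLX2, chr2:45009403-45009702 (minus) for SIX2, chr5:174724332-174724631 (plus) for MSX2, chr5:2751628-2751927 (minus) for IRX2, chr17:48530962-48531261 (minus) for HOXB1 and chr18:59273405-59273704 (minus) for RAX.
DLX2: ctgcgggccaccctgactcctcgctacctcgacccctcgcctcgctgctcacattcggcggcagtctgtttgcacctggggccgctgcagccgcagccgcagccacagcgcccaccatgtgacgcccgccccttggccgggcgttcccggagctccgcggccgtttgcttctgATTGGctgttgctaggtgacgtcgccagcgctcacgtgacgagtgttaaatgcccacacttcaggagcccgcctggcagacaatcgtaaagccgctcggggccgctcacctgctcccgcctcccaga
SIX2: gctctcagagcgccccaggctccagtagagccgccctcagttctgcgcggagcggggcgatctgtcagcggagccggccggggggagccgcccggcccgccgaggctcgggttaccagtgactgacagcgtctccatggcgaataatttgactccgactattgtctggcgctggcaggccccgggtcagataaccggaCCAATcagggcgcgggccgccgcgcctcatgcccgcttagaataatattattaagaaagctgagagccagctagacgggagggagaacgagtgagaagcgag
MSX2: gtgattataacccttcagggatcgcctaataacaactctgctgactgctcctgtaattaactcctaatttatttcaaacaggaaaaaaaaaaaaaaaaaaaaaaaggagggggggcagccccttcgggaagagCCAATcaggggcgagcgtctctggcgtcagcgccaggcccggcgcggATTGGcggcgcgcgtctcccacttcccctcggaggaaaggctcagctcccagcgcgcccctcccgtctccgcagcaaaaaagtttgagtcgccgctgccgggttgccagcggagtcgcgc
IRX2: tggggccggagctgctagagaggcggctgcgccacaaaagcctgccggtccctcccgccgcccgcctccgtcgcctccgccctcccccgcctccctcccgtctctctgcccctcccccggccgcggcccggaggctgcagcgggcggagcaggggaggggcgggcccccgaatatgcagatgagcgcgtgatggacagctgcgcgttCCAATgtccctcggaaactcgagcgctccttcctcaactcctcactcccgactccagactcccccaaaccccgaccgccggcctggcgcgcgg
HOXB1: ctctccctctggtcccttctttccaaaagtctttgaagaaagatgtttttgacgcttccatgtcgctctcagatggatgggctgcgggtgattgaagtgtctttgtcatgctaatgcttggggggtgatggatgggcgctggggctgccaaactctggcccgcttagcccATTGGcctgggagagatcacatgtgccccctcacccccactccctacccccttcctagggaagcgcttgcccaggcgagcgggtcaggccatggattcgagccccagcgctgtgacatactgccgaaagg
RAX: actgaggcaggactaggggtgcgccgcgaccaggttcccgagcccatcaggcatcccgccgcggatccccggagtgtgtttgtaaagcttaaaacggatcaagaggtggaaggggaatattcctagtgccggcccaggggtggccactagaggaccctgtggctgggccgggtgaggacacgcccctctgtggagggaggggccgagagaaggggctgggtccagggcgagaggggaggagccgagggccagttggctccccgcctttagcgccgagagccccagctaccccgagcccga
The CCAAT box occurred in 27 of the 36 genes with a RefSeq window, or 75.0%, against 35.7% of 27305 gene promoters of the same length and 31.8% of the 11251 promoters with at least 20 CG dinucleotides. MSX2 held it at 2 places, and the RAX window shown held none. The GC box (GGGCGG, both strands) was in 16 of 36 windows, or 44.4%. That was near the 44.6% of all promoters and below the 81.9% of promoters with at least 20 CG dinucleotides. In all of these comparisons the 36 windows were not limited to those with at least 20 CG dinucleotides, and some of them held fewer. The homeodomain core TAATTA was in 3 of the 36 windows (8.33%), EMX2, HOXD3 and MSX2. It was in 4.98% of all promoters and 0.880% of those with at least 20 CG dinucleotides. The TATA box TATAAA was in 2 windows (5.56%), those of HOXA9 and PAX5. It was in 12.0% of all promoters and 3.25% of those with at least 20 CG dinucleotides. The windows were rich in CG dinucleotides, with a median of 24.0 per window against 14.0 over all promoters, and the 11 of HOXB1 were the lowest number together with HOXA2. A match of letters is a description of these windows only.

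Barcodes entered the analysis where 1000 or more genes were seen and genes of the mitochondrial genome (MT-) gave less than 20% of the UMIs, each UMI being 1 counted RNA molecule. That left 9084 of 11659 barcodes in the ASO_L1 library and 6553 of 13070 in the SO_L1 library, with 499106701 and 273349662 UMIs and medians of 53959.5 and 42314 UMIs per cell. Each library fell into cells with below 2% MT- UMIs, 27.9% of ASO_L1 cells and 28.3% of SO_L1 cells, and cells with 2% or more. POU5F1, the central pluripotency factor of stem cells, was at 867 CPM (a gene's UMIs over all UMIs, on the counts-per-million scale) in ASO_L1 cells and 948 in SO_L1 cells. The libraries shared barcodes: 6105 were in both deposited lists, and 274 passed the filter in both. Of 6517 barcodes left out of the SO_L1 library, 5043 were in the ASO_L1 list, so these low-count barcodes give no clean measure of free RNA. At the 5034 barcodes that passed in the ASO_L1 library alone, the SO_L1 library held 1.35% as many UMIs as the ASO_L1 library. Keeping each shared barcode only in the library where it had more UMIs left the 10 counts of called genes given below as they were.

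Of the 54 genes, 45 had at least 20 UMIs over both libraries. VAX1, with 15 UMIs in ASO_L1 and 5 in SO_L1 cells, lay just inside that limit, and HOXD3, with 10 and 1, just outside. The 9 genes below it were HOXA2, HOXA5, HOXA9, HOXB4, HOXB9, HOXC4, HOXC8, HOXD3 and EN2, each with at most 10 UMIs in the ASO_L1 library and at most 3 in the SO_L1 library. A gene was called higher or lower where its CPM differed by 2-fold or more and the exact 95% interval of the ratio (Clopper-Pearson) left out 1. These intervals cover counting error only, not the spread between cells or cultures. Over all cells, 21 of the 45 genes were called higher in the ASO_L1 library, where 8.87% of all 27508 genes with 20 UMIs were. Lower calls numbered 2, HOXB1 and RAX, where 7.03% of all genes were called lower. The median log2 ratio of the 45 was 0.82, against -0.02 over all genes. The share called higher was 11 of 14 genes with 20 to under 100 UMIs (78.6%, against 14.8% of all genes at that level). It was 8 of 22 at 100 to under 1000 UMIs (36.4%, against 13.5%) and 2 of 9 at 1000 or more (22.2%, against 5.03%). The abundant genes IRX2, SIX4 and SIX5 were within 2-fold. A rare gene passes a limit on UMIs more readily when it is high in 1 library, and the same limit applied to all genes in each range.

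**Figure D1:**
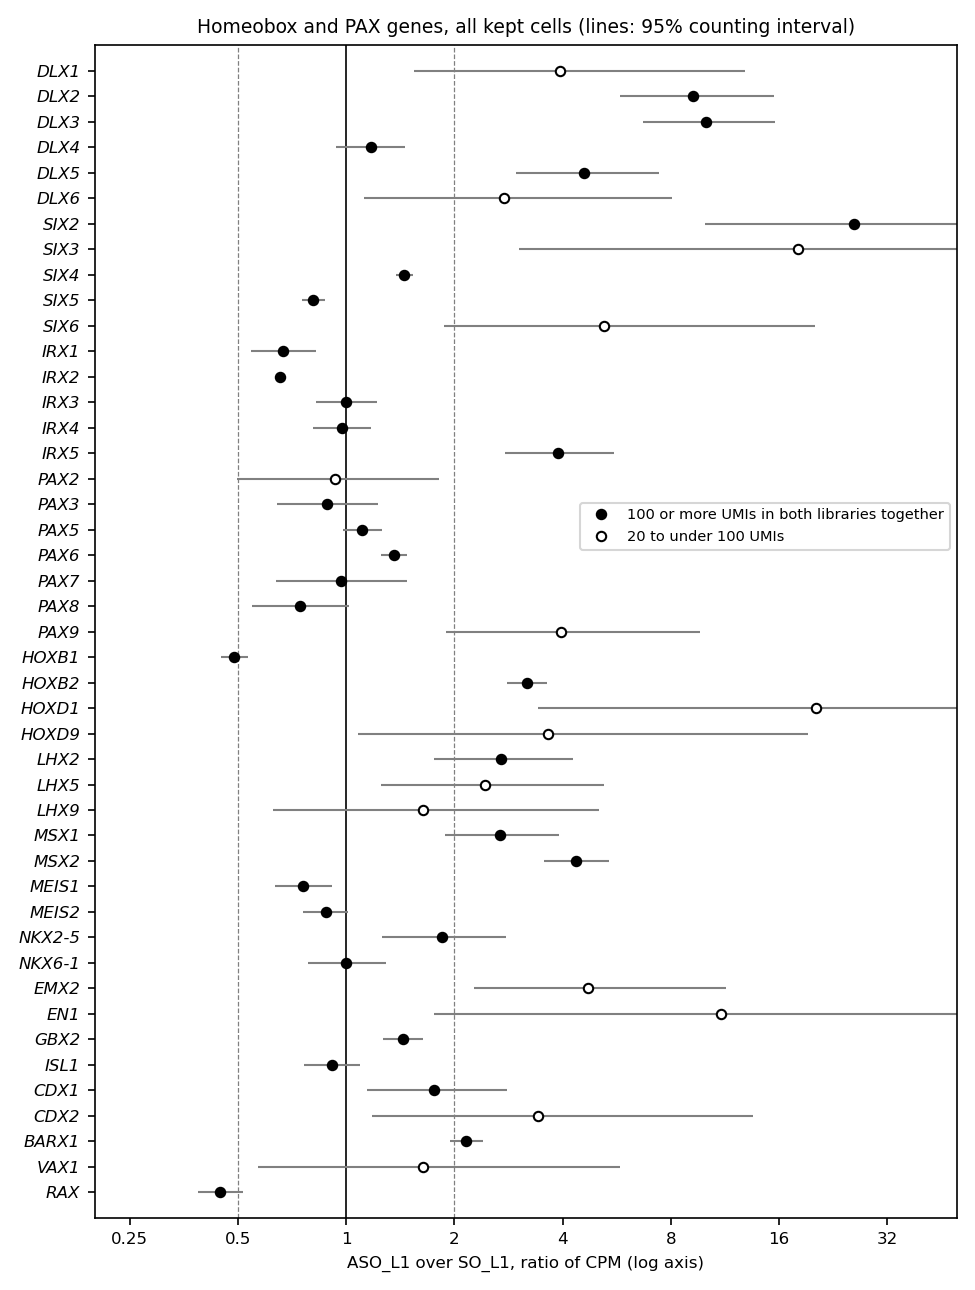
Ratio of CPM in ASO_L1 over SO_L1 for the 45 genes with at least 20 UMIs, on a log axis, with the exact 95% counting interval as a line cut at the axis limits. Filled points have 100 or more UMIs, open points 20 to under 100, and dashed lines mark 2-fold: 21 genes were called higher and HOXB1 and RAX lower.

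The DLX genes, factors of branchial arches, limb and forebrain interneurons, were the family with most calls: 5 of 6 were higher in ASO_L1 cells. DLX3 (chr17:49990005-49995224) had 456 UMIs in ASO_L1 cells and 25 in SO_L1 cells, or 0.914 and 0.0915 CPM, a ratio of 9.99 (95% interval 6.68 to 15.6). DLX2 (chr2:172099439-172102900) had 319 and 19 UMIs, 0.639 and 0.0695 CPM, a ratio of 9.20 (5.79 to 15.5). DLX2 was seen in 253 ASO_L1 cells with at most 4 UMIs in any of them, and in 19 SO_L1 cells with 1 UMI each. In counts this sparse, more cells with RNA of a gene and more RNA per cell cannot be told apart, neither by sums nor by shares of positive cells. DLX5, a neighbour of DLX6 that acts in bone and ear, had 193 and 23 UMIs, 0.387 and 0.0841 CPM, a ratio of 4.60 (2.97 to 7.42). The rarer DLX1 had 36 UMIs in ASO_L1 and 5 in SO_L1 cells (ratio 3.94), and DLX6 had 30 and 6 (ratio 2.74). DLX4 was the exception: it had 258 UMIs in ASO_L1 and 121 in SO_L1 cells, 0.517 and 0.443 CPM, a ratio of 1.17 (0.937 to 1.46). The overlapping antisense gene of DLX6, DLX6-AS1, had 18 and 10 UMIs. The labels do not say whether the counting used strand, and the split of reads between DLX6 and DLX6-AS1 was not checked.

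SIX2 to SIX6, partners of the EYA proteins in placodes, eye and kidney, split by abundance. SIX2 (chr2:45005161-45009430), known for keeping kidney progenitors, had 189 UMIs in 169 ASO_L1 cells and 4 UMIs in 4 SO_L1 cells, a ratio of 25.9 (9.94 to 96.0). SIX4 was broadly detected, with 5362 UMIs in ASO_L1 and 2019 in SO_L1 cells, 10.7 and 7.39 CPM, a ratio of 1.45 (1.38 to 1.53). SIX5 had 1738 and 1174 UMIs, 3.48 and 4.29 CPM, a ratio of 0.811 (0.752 to 0.874). The eye and forebrain gene SIX6 had 38 UMIs in ASO_L1 and 4 in SO_L1 cells (ratio 5.20). SIX3 had 33 UMIs in 12 ASO_L1 cells and 1 in SO_L1 cells (ratio 18.1), and 1 ASO_L1 cell held 15 of the 33. SIX2, SIX3 and SIX6 were called higher, while SIX4 and SIX5 stayed within 2-fold. Without the cell that held 15 of its UMIs, SIX3 would have had under 20 UMIs over both libraries and no call.

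Among the IRX genes, which pattern heart and neural tissue, 1 of 5 was called higher. IRX2 (chr5:2745845-2751662) was by far the most abundant of the 54, with 16085 UMIs in ASO_L1 and 13459 in SO_L1 cells. Its level was 32.2 CPM in ASO_L1 and 49.2 CPM in SO_L1 cells, a ratio of 0.655 (0.640 to 0.670). IRX5 (chr16:54930862-54934485) differed the other way, with 276 and 39 UMIs, 0.553 and 0.143 CPM, a ratio of 3.88 (2.76 to 5.57). IRX1, the neighbour of IRX2 at a distance of 844392 bases, had 205 and 168 UMIs, 0.411 and 0.615 CPM, a ratio of 0.668 (0.542 to 0.824). IRX3 had 299 UMIs in ASO_L1 and 163 in SO_L1 cells at 0.599 and 0.596 CPM (95% interval of the ratio 0.827 to 1.22), and IRX4 had 323 and 182 (0.972, 0.808 to 1.17). The neighbours IRX3 and IRX5 thus had ratios whose intervals did not overlap.

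The PAX genes gave 1 call among 7. That call was PAX9, a tooth and thymus factor, with 58 UMIs in ASO_L1 and 8 in SO_L1 cells (ratio 3.97, 1.89 to 9.63), inside a region where the antisense gene SLC25A21 had 7446 and 11991 UMIs. PAX6 (chr11:31784779-31818062), the regulator of eye and cortex, had 1833 and 739 UMIs, 3.67 and 2.70 CPM, a ratio of 1.36 (1.25 to 1.48). The overlapping antisense gene ELP4 had 11607 UMIs in ASO_L1 and 13485 in SO_L1 cells, a ratio of 0.471, the other direction from PAX6, and a second antisense gene there, PAUPAR, had 227 and 94, a ratio of 1.32 (1.04 to 1.70). PAX5, a B cell and midbrain factor, had 744 and 367 UMIs, 1.49 and 1.34 CPM, a ratio of 1.11 (0.978 to 1.26). The 367 included 43 UMIs from 1 SO_L1 cell, and the highest ASO_L1 cell had 24. The neural crest and muscle genes had ratios near 1, PAX3 with 102 and 63 UMIs (0.887, 0.641 to 1.23) and PAX7 with 67 and 38 (0.966, 0.639 to 1.48). PAX8, of thyroid and kidney, had 102 UMIs in ASO_L1 and 75 in SO_L1 cells (0.745, 0.547 to 1.02), and PAX2 had 29 and 17 (0.934, 0.496 to 1.81).

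The HOX genes of the 54 were almost silent apart from HOXB1 and HOXB2, neighbours on chromosome 17 with 9893 bases between them, and they differed in opposite directions. HOXB1 (chr17:48528526-48531001), the hindbrain gene that responds to retinoic acid, had 1008 UMIs in ASO_L1 and 1128 in SO_L1 cells. Its level was 2.02 CPM in ASO_L1 and 4.13 CPM in SO_L1 cells, a ratio of 0.489 (0.449 to 0.533). HOXB2 (chr17:48540894-48544989) had 1602 and 276 UMIs, 3.21 and 1.01 CPM, a ratio of 3.18 (2.80 to 3.63). The antisense gene over HOXB2, HOXB-AS1, had 13639 UMIs in ASO_L1 and 13752 in SO_L1 cells, a ratio of 0.543 (0.530 to 0.556), nearer to the ratio of HOXB1 than to that of HOXB2. The use of strand is not stated, and the split of reads between HOXB2 and HOXB-AS1 was not checked. Of other genes at that locus, HOXB3 had 67 and 70 UMIs (0.524, 0.369 to 0.744) and HOXB7 97 and 18 (2.95, 1.77 to 5.19). HOXD1 had 37 UMIs in ASO_L1 and 1 in SO_L1 cells (20.3, 3.42 to 822), and HOXD9 had 20 and 3 (3.65, 1.08 to 19.2). The other 8 HOX genes were among those under 20 UMIs.

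Of the LIM-homeobox genes, LHX2, a forebrain and eye regulator, had 128 UMIs in ASO_L1 and 26 in SO_L1 cells, 0.256 and 0.0951 CPM, a ratio of 2.70 (1.76 to 4.28). A single SO_L1 cell held 10 of the 26 UMIs. LHX5 had 49 and 11 UMIs (2.44, 1.25 to 5.20), LHX9 had 18 and 6 (1.64, 0.625 to 5.06), and ISL1, of motor neurons and heart, had 331 and 199, 0.663 and 0.728 CPM (0.911, 0.762 to 1.09). Both MSX genes, targets of BMP signals, were called higher. MSX2 (chr5:174724533-174730893) had 844 and 106 UMIs, 1.69 and 0.388 CPM, a ratio of 4.36 (3.56 to 5.39), and MSX1 had 186 and 38, 0.373 and 0.139 CPM, a ratio of 2.68 (1.88 to 3.91). The cofactors MEIS1 and MEIS2 were not called. MEIS1 had 294 UMIs in ASO_L1 and 212 in SO_L1 cells, 0.589 and 0.776 CPM (0.760, 0.634 to 0.911), and MEIS2 had 517 and 323, 1.04 and 1.18 CPM (0.877, 0.761 to 1.01).

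BARX1, of stomach and face, had 1783 UMIs in ASO_L1 and 452 in SO_L1 cells, 3.57 and 1.65 CPM, a ratio of 2.16 (1.95 to 2.40). RAX, the gene that starts the eye field, had 357 and 437 UMIs, 0.715 and 1.60 CPM, a ratio of 0.447 (0.388 to 0.516). A single ASO_L1 cell with 81720 UMIs held 85 of BARX1, 28 of RAX, 18 of IRX3, 11 of GBX2, 9 of IRX4, 8 of IRX5, 5 of HOXD1 and 3 of DLX5. The next highest ASO_L1 cell had 21 UMIs of BARX1 and 9 of RAX. Without that cell the ratio of BARX1 was 2.06 and that of RAX 0.412. GBX2, of the midbrain-hindbrain border, had 879 UMIs in ASO_L1 and 334 in SO_L1 cells, 1.76 and 1.22 CPM (1.44, 1.27 to 1.64). Its antisense gene AC019068.1 had 5444 and 4584 UMIs, a ratio of 0.650. The heart gene NKX2-5 had 118 and 35 UMIs, 0.236 and 0.128 CPM (1.85, 1.26 to 2.78), and NKX6-1, of pancreas and spinal cord, had 183 and 100, 0.367 and 0.366 CPM (95% interval of the ratio 0.781 to 1.29). CDX1 had 90 UMIs in ASO_L1 and 28 in SO_L1 cells (1.76, 1.14 to 2.80) and CDX2, a trophectoderm and gut regulator, 25 and 4 (3.42, 1.18 to 13.5). EMX2, of the cortex, had 69 and 8 UMIs (4.72, 2.27 to 11.4), EN1 had 20 and 1 (95% interval of the ratio 1.75 to 454), and VAX1 had a ratio of 1.64 (0.568 to 5.78).

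The ratio was then taken within cells of like mitochondrial share, with MT- genes left out of the total. Among cells with below 2% MT- UMIs (2531 ASO_L1 and 1857 SO_L1 cells, with median depths of 44720 and 33612 UMIs), 16 of 36 genes with 20 UMIs were called higher in ASO_L1 cells, where 13.4% of all genes were. The 3 called lower were IRX2, HOXB1 and RAX, where 14.1% of all genes were, and the median log2 ratio was 0.86 against -0.01 over all genes. Among cells with 2% or more (6553 and 4696 cells, with 56296 and 45154 UMIs), 10 of 38 genes were called higher, against 6.21% of all genes, and 0 lower, against 5.86%. The median log2 ratio there was 0.52, against -0.06 over all genes. DLX2, DLX3, DLX5, SIX2, IRX5 and MSX2 were called higher in both classes.

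The 2 classes of cells differed in the size of the ratio for several genes. Among the 29 genes with 100 or more UMIs and at least 5 in each library and class, PAX6 had the largest quotient of the low-class over the high-class ratio. In cells with below 2% MT- UMIs PAX6 had 288 UMIs in ASO_L1 and 27 in SO_L1 cells, 2.52 and 0.457 CPM, a ratio of 5.51 (3.71 to 8.51). In cells with 2% or more PAX6 had 1545 and 712 UMIs, 4.34 and 3.66 CPM, a ratio of 1.19 (1.09 to 1.30). The quotient of the 2 ratios was 4.65 (3.10 to 6.96) for PAX6, 3.95 (1.53 to 10.2) for DLX2, 3.54 (1.59 to 7.89) for MSX1, 3.43 (2.06 to 5.70) for DLX4 and 3.27 (1.61 to 6.66) for IRX5. DLX4, not called over all cells, had ratios of 2.63 (1.69 to 4.26) below 2% and 0.767 (0.587 to 1.01) at 2% or more. HOXB2 went the other way, with ratios of 1.71 (1.39 to 2.11) below 2% and 4.25 (3.59 to 5.06) at 2% or more, as did MSX2, with 3.40 (2.67 to 4.39) and 6.27 (4.31 to 9.44). HOXB1 was called lower below 2%, with 3.44 against 10.4 CPM (ratio 0.329, 0.289 to 0.374), and was within 2-fold at 2% or more, with 1.73 against 2.63 CPM (0.658, 0.584 to 0.741). RAX had ratios of 0.205 (0.148 to 0.282) and 0.556 (0.472 to 0.655). In the class with 2% or more, the single cell rich in BARX1 carried 2 calls: without it the ratio of IRX5 was under 2 and HOXD1 had under 20 UMIs, so neither was called. The SIX3 call in that class rested on another single cell, which held 15 of its 28 ASO_L1 UMIs. Without that other cell SIX3 would have had under 20 UMIs there.

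**Figure D2:**
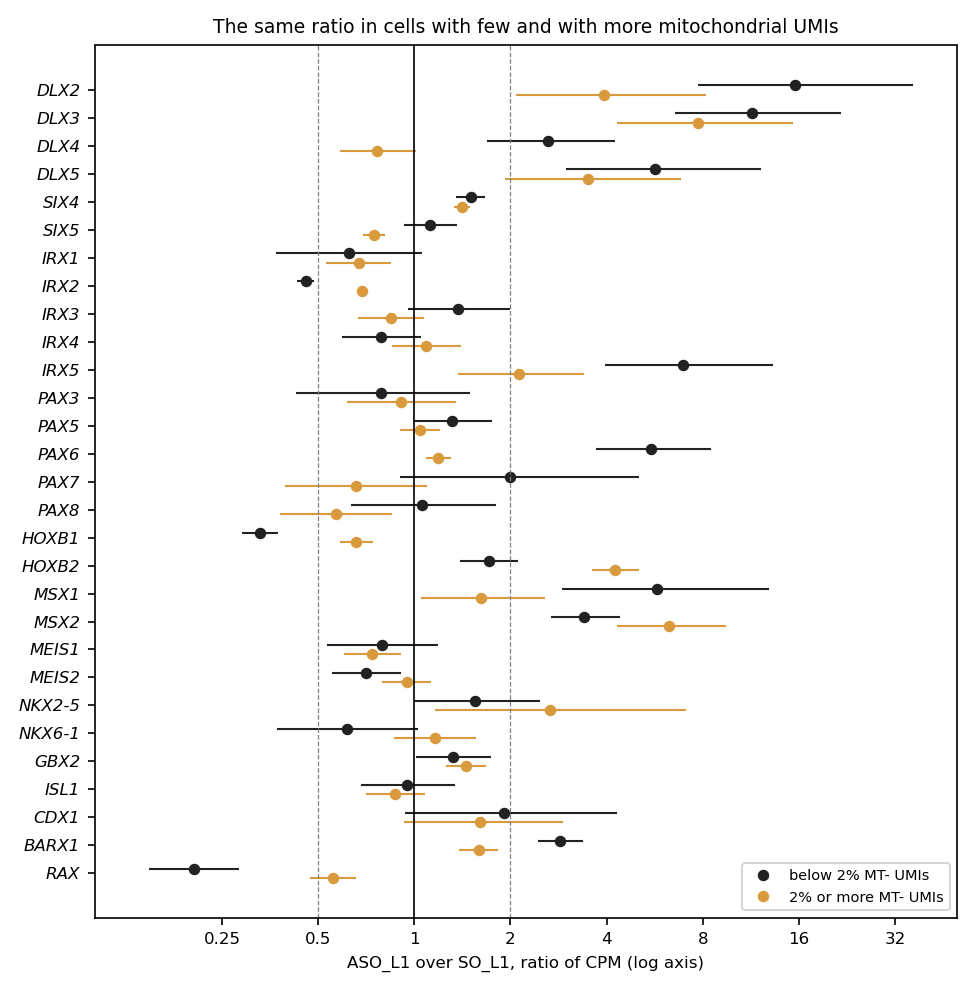
Ratio of CPM in ASO_L1 over SO_L1 (log axis) with exact 95% counting intervals for 29 genes, in cells with below 2% MT- UMIs (black) and with 2% or more (orange). PAX6, DLX2, DLX4, IRX5 and MSX1 lie further right in black, and HOXB2 and MSX2 further right in orange.

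Within a library, cells with few mitochondrial UMIs were set against those with more. In the ASO_L1 library 23 of 43 genes were called higher below 2%, where 17.7% of all genes were, and 1, IRX2, was called lower, where 4.26% were. By abundance the higher calls were 11 of 14 genes with 20 to under 100 UMIs (30.9% of all genes), 11 of 22 with 100 to under 1000 (26.8%) and 1 of 7 with 1000 or more (8.95%). In the SO_L1 library 7 of 29 were called higher, where 12.4% of all genes were, and 1, PAX6, was called lower, where 2.13% were. By abundance these higher calls were 2 of 10 genes with 20 to under 100 UMIs (against 24.3% of all genes) and 5 of 19 with 100 or more (9.32%). Of those 5, 4 were among the 15 genes with under 1000 UMIs, a range in which all genes were called higher more often than above it. The median log2 ratio was 1.25 in the ASO_L1 library (0.19 over all genes) and 0.51 in the SO_L1 library (0.14 over all genes). All 6 DLX genes were called higher in the low class of the ASO_L1 library. DLX2, for instance, had 2.10 CPM below 2% and 0.222 CPM at 2% or more there, a ratio of 9.46 (7.31 to 12.4). MSX2 was called higher in both libraries, at 4.53 (3.94 to 5.21) in ASO_L1 and 8.35 (5.40 to 13.2) in SO_L1 cells, and so was NKX2-5, at 7.69 (5.11 to 11.8) and 13.2 (5.63 to 35.7). PAX6 had 0.457 CPM below 2% and 3.66 CPM at 2% or more in the SO_L1 library, a ratio of 0.125 (0.0818 to 0.183), and 0.580 (0.510 to 0.659) in the ASO_L1 library. IRX2 had ratios of 0.393 (0.374 to 0.413) in ASO_L1 and 0.588 (0.561 to 0.617) in SO_L1 cells, the second within 2-fold. HOXB1 had 1.99 (1.75 to 2.26) in ASO_L1 cells, within 2-fold, and 3.98 (3.53 to 4.48) in SO_L1 cells.

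**Figure D3:**
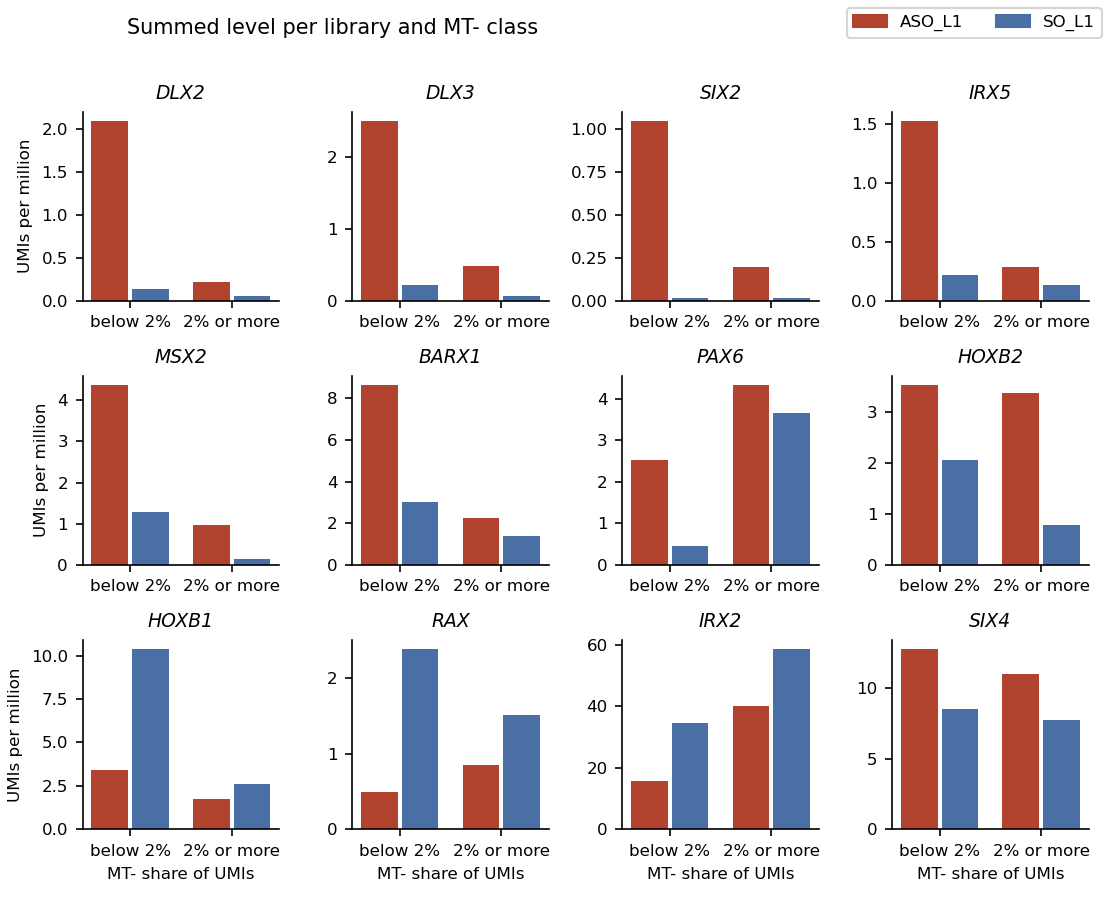
Level in CPM (axes from 0, own scale per gene) of 12 genes in ASO_L1 (red) and SO_L1 (blue) cells, by share of MT- UMIs. Each bar is the sum over 1 library's cells and has no error bar; the low-mitochondrial ASO_L1 cells hold the highest DLX2, DLX3, SIX2, IRX5, MSX2 and BARX1, and the low-mitochondrial SO_L1 cells the highest HOXB1 and RAX.

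To compare shares of positive cells at like depth, each cell was thinned to 8000 UMIs, which left 8564 ASO_L1 and 5904 SO_L1 cells (520 and 649 shallower cells were left out). Detection was rare: IRX2 was found in 19.1% of ASO_L1 and 27.6% of SO_L1 cells, SIX4 in 8.73% and 5.62%, and each other gene in under 4%. DLX2 was found in 0.852% of thinned ASO_L1 cells (95% exact binomial interval 0.669 to 1.07) and 0.119% of SO_L1 cells (0.0477 to 0.244), DLX3 in 0.922% and 0.136%, and HOXB2 in 2.67% and 0.847%. Before thinning the DLX2 shares were 2.79% and 0.290%. SIX2 was found in 32 thinned ASO_L1 cells and 0 of 5904 SO_L1 cells, for which the exact 95% interval reaches 0.0625%. Free RNA can give a UMI in a cell that does not express a gene. Within the ASO_L1 library, at the same thinned depth, DLX2 was found in 2.42% of cells below 2% MT- UMIs and 0.300% of cells at 2% or more. Of the 35 genes with at least 10 positive thinned cells, 13 had a share at least 2-fold higher in ASO_L1 cells, where 9.42% of all 24489 genes with as many positive cells had, and 1, RAX, a share at least 2-fold lower, where 6.22% had. Of the 22 with 10 to under 100 positive cells 10 were higher (against 19.9% of all genes), and of the 13 with 100 or more 3 were (against 4.87%).

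Leaving out IRX2, SIX4 and SIX5, at least 3 of the other 51 genes were found in 64 of 8564 thinned ASO_L1 cells, or 0.747% (0.576 to 0.953), and in 13 of 5904 SO_L1 cells, or 0.220% (0.117 to 0.376). Below 2% MT- UMIs the shares were 1.97% of ASO_L1 and 0.450% of SO_L1 cells, and at 2% or more 0.316% and 0.138%. As deposited, 1 ASO_L1 cell with 38429 UMIs held 15 of the 51 genes, among them DLX2, DLX3, DLX5, SIX2, IRX5, LHX2, MSX2, PAX5 and PAX6, each with at most 4 UMIs. The SO_L1 cell with most held 9, among them EMX2, LHX2, PAX6, SIX6 and IRX5.

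The genes found together were read from the other cells of the same library and class. ASO_L1 cells with a UMI of DLX2 and below 2% MT- UMIs (187 of 2531, with a median of 43369 UMIs against 44783 in the others) held 18 of 35 other homeobox and PAX genes at a level called higher, where 8.14% of all genes were, or 13.7% of genes with 20 to under 1000 UMIs. EMX2 was 7.90-fold higher in these DLX2 cells (4.30 to 14.3), DLX5 6.45-fold (4.26 to 9.64), MSX1 5.56-fold (3.55 to 8.55), LHX2 5.47-fold (2.81 to 10.2) and IRX5 3.45-fold (2.37 to 4.93). HOXB1 was the 1 gene called lower, at 0.295 (0.140 to 0.548), where 8.16% of all genes were. Cells with a UMI of DLX5 gave 18 of 35 below 2% (against 9.94% of all genes) and 18 of 34 at 2% or more (against 6.66%). IRX5 cells gave 15 of 35 (against 9.01%) and 16 of 34 (against 10.6%). The single cell rich in BARX1 was among both the DLX5 and the IRX5 cells at 2% or more. Without it the DLX5 cells gave 12 of 33 (against 6.18% of all genes) and the IRX5 cells 11 of 33 (against 10.2%). Both shares are over all genes, not only those with 20 to under 1000 UMIs. HOXD1, IRX4, GBX2 and RAX were then no longer among the genes called higher in either. IRX2 cells below 2% had 0 of 35 other genes higher, where 0.354% of all genes were, so a count of 0 says little. At 2% or more, SIX3 (4.16, 1.27 to 21.5) and IRX1 (2.15, 1.46 to 3.27) were called higher in IRX2 cells, where 0.810% of all genes were. The SIX3 value came from 25 UMIs against 3, and 1 cell held 15 of the 25. Only 7 ASO_L1 cells of that class held a SIX3 UMI, so its call says little about shared cells.

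**Figure D4:**
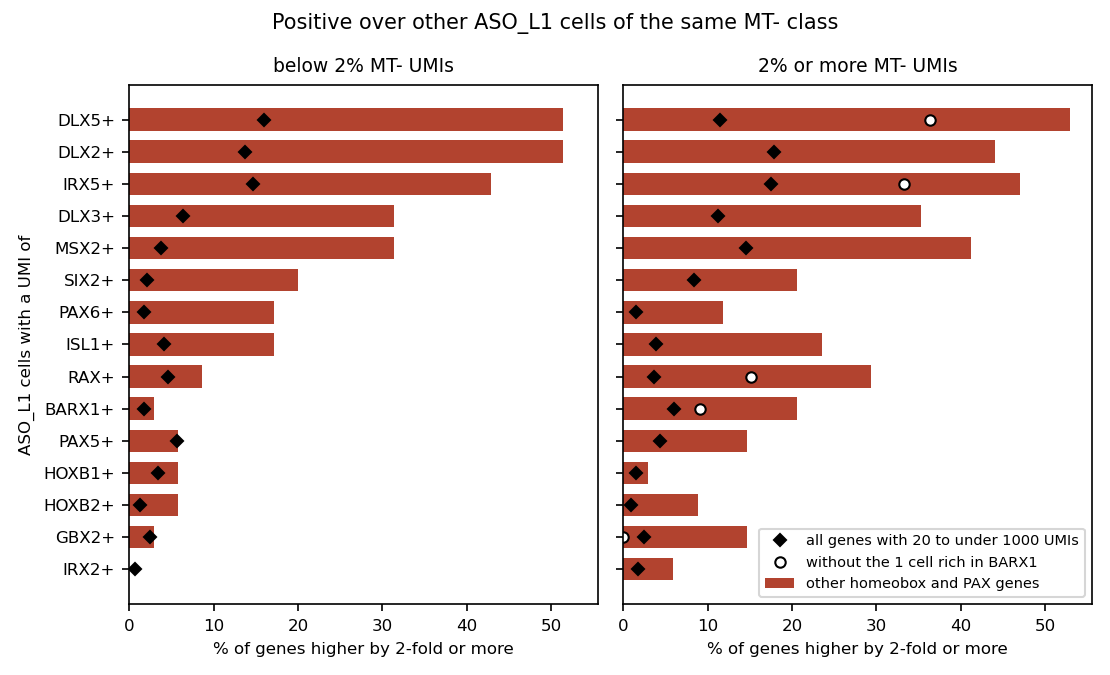
Percent of the other homeobox and PAX genes (bars) called higher in ASO_L1 cells with at least 1 UMI of the named gene than in the other ASO_L1 cells of the same class, beside the percent of all genes with 20 to under 1000 UMIs (diamonds). Open circles at 2% or more leave out the 1 cell rich in BARX1. Bars for DLX5, DLX2 and IRX5 exceed 40% in both classes, but without that cell DLX5 is at 36.4% and IRX5 at 33.3% at 2% or more. The bar for IRX2 below 2% MT- UMIs is at 0, where the diamond is at 0.650%.

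Markers of other cell fates were called in both directions in the DLX2 cells. In the DLX2 cells below 2%, 5 of 10 neural markers were called higher, where 8.14% of all genes were. Among them were SOX3, NEUROG2 (from 7 UMIs), DCX and ZIC1, the last at 4.76-fold (3.11 to 7.14). GSC, of the primitive streak, was 3.74-fold higher (2.68 to 5.14). The cardiac marker ACTC1 (0.405, 0.338 to 0.483) and the fibroblast marker THY1 (0.480, 0.407 to 0.562) were called lower. In the same cells 6 of 9 pluripotency markers were called lower, DNMT3B at 0.268 (0.237 to 0.301) and NANOG at 0.497 (0.428 to 0.575) among them, and 0 higher. Of 9 naive-state markers 1 was called higher, KHDC1L at 2.58-fold (2.51 to 2.65), and 2 lower, DPPA5 at 0.337 (0.306 to 0.371) and FGF4 at 0.375 (0.288 to 0.480). In DLX2 cells at 2% or more 3 of the 9 naive-state markers were called higher and 0 lower, where 11.4% of all genes were called higher and 2.24% lower. Over genes with 20 to under 1000 UMIs the share called higher was 17.9%. KLF17 was at 29.9-fold there (23.0 to 38.6), from 78 UMIs summed over the 66 DLX2 cells. Of the mesoderm, endoderm and trophectoderm lists, 3, 3 and 2 markers were called higher in the DLX2 cells below 2%. Summed over each list, neural markers had 808 CPM in those cells and 837 in the others, and mesoderm markers 88.9 and 82.3. Their part in the result was not tested.

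Cells with HOXB1 were read in the same way. ASO_L1 cells with HOXB1 and below 2% MT- UMIs had 8 of 35 other genes called lower, where 5.08% of all genes were: DLX2 (0.287, 0.130 to 0.555), DLX3, DLX5, SIX2, MSX1 (0.150, 0.0180 to 0.558), MSX2, MEIS1 and MEIS2. Called higher were 2, its neighbour HOXB2 (4.17, 3.38 to 5.13) and RAX (2.46, 1.24 to 4.59), where 2.32% of all genes were. Of 9 pluripotency markers 1 was called higher in them, UTF1 at 2.20-fold (2.13 to 2.27), and 0 lower. Of 9 naive-state markers 2 were called higher, DPPA5 at 2.58-fold (2.49 to 2.68) and FGF4 at 2.83-fold (2.56 to 3.12), and 3 lower, DPPA3 at 0.275 (0.247 to 0.304), KLF17 at 0.453 (0.316 to 0.632) and KHDC1L at 0.238 (0.223 to 0.253). The median depth was 55868 UMIs in these HOXB1 cells and 42823 in the others. At 8000 UMIs, HOXB1 and HOXB2 were found together in 17 ASO_L1 cells, where the product of their shares gave 4.25, or 4.00 times the product (2.33 to 6.40). In the SO_L1 library 6 cells held both, against 1.52, or 3.96 times. As deposited the ASO_L1 quotient was 2.82 (2.49 to 3.18). The neighbours DLX1 and DLX2, DLX3 and DLX4, and DLX5 and DLX6 were in 0 thinned cells together in either library, where the products gave at most 0.268. As deposited, DLX1 and DLX2 shared 8 ASO_L1 cells below 2% MT- UMIs, or 4.92 times the product within that class, and 1 at 2% or more. DLX3 and DLX4 shared 16 ASO_L1 cells below 2%, or 1.78 times the product, and 9 at 2% or more, or 3.24 times.

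The genes whose level most resembled that of a leading member were named by the mean over libraries of Pearson's r across the kept cells (9084 ASO_L1 and 6553 SO_L1) of log2(1 + UMIs per 10000), without a test, since the cells share a library and differ in depth. PAX6 was most like ADAMTSL1 (0.37), CDH2 (0.31) and CYP26A1 (0.26), the last an enzyme that degrades retinoic acid. IRX2 was most like SOX2 (0.24), its genomic neighbour C5orf38 (0.21) and PDPN (0.21), and MSX2 like GADD45A (0.31 in ASO_L1 and 0.12 in SO_L1 cells), PLK2 (0.31 and 0.11) and ID2 (0.25 and 0.12). For DLX3 they were CHGB (0.15 in ASO_L1 and 0.34 in SO_L1 cells), GDNF (0.07 and 0.40) and GADD45B (0.24 and 0.20), and 22 SO_L1 cells held a DLX3 UMI. The values for HOXB1 (0.15 for GSTP1 and 0.14 for HOXB2), MEIS2 (0.20 for EPAS1) and ISL1 (0.12 for IFIT1) were weak, and those for SIX4 reached 0.09.

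The regulators known to act on these genes were read from lists. Over all genes with 20 UMIs, 8.87% were called higher and 7.03% lower, and no list is read as changed as a whole. Of 49 other genes of the same families, 25 had 20 UMIs, and 9 of them were called higher and 1, NKX6-2, lower. LHX1 had 450 UMIs in ASO_L1 and 42 in SO_L1 cells (5.87, 4.27 to 8.26), GBX1 173 and 18 (5.26, 3.23 to 9.09), and the abundant CDX4 and MEIS3 had ratios of 1.93 and 1.16. Of 22 cofactors, 4 were higher and 0 lower over all cells. LDB1 was at 2.81 and LMO2 at 2.61, while LDB2 was at 0.521. Of 29 Polycomb genes 4 were higher, CBX8 at 3.85 (2.67 to 5.73) and PCGF1 at 3.25 (2.99 to 3.53) among them, and 1 lower, while JARID2 and RBBP4 were at 0.926 and 1.06. The 11 Trithorax genes gave 0 calls, with WDR5 at 1.52. The 17 genes of retinoic acid transport and response gave 4 higher and 4 lower: CRABP2 was at 3.38, RXRG at 0.315 and CRABP1 at 0.704, the last within 2-fold. Of 20 BMP and WNT response genes 2 were higher, DKK1 at 10.2 (6.75 to 16.1) and SP5 at 2.10 (1.65 to 2.70), and 0 lower.

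Marker lists of other cell types also differed between the libraries over all cells. Summed levels were 63.7 CPM in ASO_L1 and 6.43 in SO_L1 cells for 9 endoderm markers (5 higher), 48.5 and 22.2 for mesoderm (4 of 11 higher), and 80.7 and 58.1 for amnion (2 of 8). They were 499 and 396 for trophectoderm (3 of 10 higher, 1 lower), 554 and 601 for neural markers (3 of 10 higher, 1 lower), 24.7 and 19.6 for neural crest and placode (2 of 9), 14.6 and 10.3 for cardiac (0 of 6 higher, 1 lower) and 838 and 273 for fibroblast markers (2 of 7, mostly VIM). Single genes made up most of several sums. CER1 had 58.4 CPM in ASO_L1 and 4.06 in SO_L1 cells, KRT18 445 and 345, TUBB3 407 and 467, and ACTC1 13.3 and 8.72. These belong to the endoderm, trophectoderm, neural and cardiac lists, in that order. The 9 naive-state markers summed to 469 and 340 CPM (4 higher, 1 lower) and the 9 pluripotency markers to 3374 and 3918 (0 calls). Over all genes, 8.87% were called higher and 7.03% lower. The part of cells with these markers in the homeobox and PAX ratios was not tested.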

How the data were processed

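RNA of single H9 cells was counted with the 10x 3' v3 chemistry in 1 ASO_L1 and 1 SO_L1 library. The values the authors deposited are UMI counts, not normalized. The submitters' processing notes name Cell Ranger 7.1.0 and the build hg38. The sources used here do not give the annotation release, how cells were called, or whether strand and introns were used. Groups came from the labels. The genes and lists were chosen with earlier results of these data known.

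Cells with at least 1000 genes and under 20% MT- UMIs were kept, and UMIs were summed per library or class and divided by the total to CPM. MT- genes were left out of that total within classes. Ratios carry exact conditional binomial (Clopper-Pearson) 95% intervals (scipy 1.17.1, numpy 2.4.6, pandas 2.3.3, Python 3.11.15). Amplified UMIs of 1 cell are not independent, so intervals cover counting error only. A sum of 0 was replaced by a floor of 3 counts for a fold. Thinning drew 8000 UMIs per cell without replacement. No doublet caller was run. An alternative left out cells above the 95th percentile of UMIs instead. Genes with 100 or more UMIs were named with full values, those with 20 to under 100 with sums and ratio, and from each list the 2 genes with most UMIs and the 2 with the ratio furthest from 1, except that some genes of the lists are not reported here. The cell rich in BARX1, genes named for the cells they share and the HOXB3 and HOXB7 values were chosen after their values were seen. Gene positions came from GENCODE 29 on GRCh38 by gene ID, and promoters from RefSeq. Of the 54 genes, 36 matched a promoter entry by symbol.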

Additional observations from a re-analysis of the deposited data

How the results depend on the processing

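The counts of called genes were repeated under 14 other settings, 2 of them chosen after seeing the data (shared barcodes kept only where they had more UMIs, and the cell rich in BARX1 left out, the second also for the DLX5 and IRX5 cells). DLX2, DLX3, DLX5, SIX2, IRX5, HOXB2, MSX1, MSX2 and RAX kept their call of ASO_L1 over SO_L1 over all cells in each of them, and DLX2, DLX3, HOXB2 and MSX2 kept theirs among cells with 2% or more MT- UMIs. A further setting, for the class comparisons only, took classes below 1% and at 3% or more MT- UMIs. DLX2, DLX3, HOXB2 and MSX2 also kept their call at 3% or more. For each count below, the share over all genes in its setting stands in brackets. Thinning cells to 8000 UMIs gave 9 higher of 30 (8.32%) and 1 lower (5.75%) over all cells. It gave 10 higher of 22 (13.2%) below 2% MT- UMIs and 5 higher of 24 (5.11%) at 2% or more. For low over high MT- share it gave 8 higher of 26 (17.7%) in ASO_L1 and 2 lower of 18 (1.76%) in SO_L1 cells. DLX6 reversed to 0.919 in thinned cells, where SO_L1 had 0 UMIs and the floor of 3 set the value. A minimum of 50 UMIs gave 13 higher of 34 (8.40%) over all cells. A limit of 1.5-fold gave 3 lower of 38 (15.7%) at 2% or more MT- UMIs. For low over high it gave 4 lower of 43 (11.4%) in ASO_L1 and 3 of 29 (5.89%) in SO_L1 cells. Leaving out each gene's 10 highest cells gave 1 lower of 30 (4.87%) at 2% or more. For low over high it gave 4 lower of 34 (9.29%) in ASO_L1 cells. In SO_L1 cells it gave 3 higher (8.21%) and 2 lower (7.02%) of 21. Leaving out every barcode present in both lists, 5308 kept ASO_L1 and 1062 kept SO_L1 cells, gave 3 lower of 33 (12.5%) at 2% or more MT- UMIs. Point ratios alone gave 2 lower of 29 (2.73%) for low over high in SO_L1 cells. Without thinning, 27 genes of 47 had a share of positive cells at least 2-fold higher in ASO_L1 cells (13.9% of all genes had), in place of 13 of 35, and 0 a lower one (2.40% had), and the libraries then differed in depth. Apart from the changes by construction, the cause was not tested. Centring on the median gene moved low over high ratios by 0.14 in ASO_L1 and 0.09 in SO_L1 cells (log2). Genes under 100 UMIs rest on few cells, so their ratios are wide. No paired analysis was possible because each group is 1 library.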
